A study of Mus musculus with 16 samples.

Results

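The replication-dependent histone genes encode the bulk of the H1, H2A, H2B, H3 and H4 proteins that package newly copied DNA. They were chosen by gene symbol, as the genes whose symbol begins with Hist1h, Hist2h, Hist3h or Hist4h or with the newer names of the same genes. The files gave 54 such genes of 37620 in all, after 3 pseudogenes were left out. By family they were 6 H1, 16 H2A, 13 H2B, 7 H3 and 12 H4 genes. A further 14 annotated genes fit these names but have gene identifiers that were not analysed here, among them H1f0, Hist4h4 and several H2B and H3 genes. Some of them, such as Hist1h3f, have a transcript under an unnamed identifier of the files. There were 9 unnamed identifiers that hold a histone transcript, and they are taken up below apart from the 54 genes.

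The 16 libraries hold RNA of proximal jejunum, the upper middle stretch of the small intestine, taken from CBA/J males that were 8 weeks old. They formed 4 groups of 4, namely supplemented diet with 8.5 Gy of gamma rays, supplemented diet with 0 Gy, adequate diet with 8.5 Gy, and adequate diet with 0 Gy. Supplemented means a diet with methionine at 300%, and adequate means a diet with an adequate methionine content. The design text also gives 6 days, without saying whether this was time on the diet or time after exposure. All mice were of 1 inbred strain and 1 sex and carried no engineered allele that the labels name. The labels give no animal identifiers, so the p-values below measure the spread between libraries.

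Core histones form the spool around which DNA winds, and H1 binds the linker DNA between spools. Their replication-dependent genes lie in clusters and are switched on together as a cell enters S phase, through the coactivator Npat. Their mRNAs are unusual in having no poly(A) tail. They end instead in a short hairpin that is bound by the stem-loop binding protein Slbp and is cut just downstream by a particle containing the U7 small nuclear RNA. In the intestine, dividing cells sit in the crypts, while the absorptive cells of the villi no longer divide. The libraries were made from RNA depleted of ribosomal RNA rather than selected for poly(A), per the labels' protocols, so that mRNAs without a tail could be captured.

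The hairpin was looked for in the annotated transcripts of all 54 genes, since it is the feature that sets these mRNAs apart. The search asked for 6 paired bases beginning with GG, a loop of 4 bases beginning with TTT, and the exact reverse complement of the first 6, on the transcript strand. It was found in 37 of the 54 genes and in 72 of 21951 annotated protein-coding genes (0.328%), and the 37 are part of the 72. The hairpins came in 6 spellings. The following are the 6 spellings and the hairpins of the genes on which the results turn, written 5′ to 3′ as DNA letters from GENCODE M21 transcripts (build GRCm38), with the hairpin in capitals and its flanks in lower case.
Hist2h2ac (chromosome 3, minus strand): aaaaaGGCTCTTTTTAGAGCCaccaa
Hist1h2ad (chromosome 13, plus strand): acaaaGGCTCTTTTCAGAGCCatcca
Hist2h2aa1 (chromosome 3, plus strand): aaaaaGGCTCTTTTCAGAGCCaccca
Hist1h3c (chromosome 13, minus strand): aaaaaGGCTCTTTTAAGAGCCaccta
Hist1h4d (chromosome 13, plus strand): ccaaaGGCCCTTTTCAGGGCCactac
Hist2h4 (chromosome 3, minus strand): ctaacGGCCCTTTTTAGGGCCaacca
Hist1h4b (chromosome 13, plus strand): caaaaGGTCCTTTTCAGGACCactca
The spelling of Hist1h2ad and Hist2h2aa1 was shared by 21 genes, that of Hist1h4d by 6 H4 genes and that of Hist1h3c by 5 genes. Hist2h4 shared its spelling with Hist1h4i, and Hist1h4b shared its spelling with Hist1h4j. Of the 54 genes, Hist2h2ac alone had its spelling. For the other 17 genes, no match says only that these letters are not in the annotated transcripts.

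Depth ran between 2.57 and 15.51 M counts per library, and 3 libraries lay under 4 M counts: supplemented irradiated replicate 1, adequate irradiated replicate 2 and adequate unirradiated replicate 1. The 54 genes together took between 0.134 and 0.347% of the counts of a library. Small nucleolar RNAs took between 7.73 and 14.1% of counts in the supplemented irradiated libraries, against 3.13 to 5.05% in the supplemented unirradiated ones. With the adequate diet they took 7.18 to 10.7% in irradiated and 2.93 to 4.03% in unirradiated libraries. TPM values, the relative transcript abundance per length, move with that share, so levels between libraries are given as CPM, the counts relative to a library total scaled by TMM, and TPM served only to rank genes within the same libraries. As a check of the tissue, a list of 12 absorptive enterocyte genes summed to between 16302 and 66132 CPM per library.

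By mean TPM over the 16 libraries, which takes length into account, the H4 genes made up 31.3% of the level of all 54 genes, the H2A genes 22.6%, the H3 genes 21.9%, the H2B genes 14.4% and the H1 genes 9.84%. Hist1h4c was highest with a mean of 86.2 TPM. Hist2h3b (67.2 TPM), Hist1h4n (65.8 TPM), Hist1h4d (57.5 TPM), Hist1h2ab (57.5 TPM) and Hist1h1e (41.7 TPM) came next. Their ranges over libraries overlapped, so the order among them is not firm. The leading H2B genes were Hist1h2bc at 35.3 TPM and Hist1h2bf at 27.4 TPM, and Hist1h1c, a linker histone, had 19.0 TPM. At the other end, Hist3h2ba, Hist1h2br, Hist1h2aa and Hist1h1t had means of at most 0.135 TPM and were too low to be tested. For Hist1h2br this holds for its named identifier, since an unnamed identifier with a Hist1h2br transcript was tested and is taken up below. Hist1h1t and Hist1h2aa encode histones of the testis, and they were listed at 0 in 9 and 13 of the 16 libraries.

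Many copies within a family are near-identical, and RSEM divides a read that fits several copies among them. Of all 47-base windows of a gene's transcripts, the median gene had 52.7% found in no other annotated gene, and 25 of the 54 genes had under 50%. The windows are those of GENCODE M21 transcripts, while the counts were made on an earlier build, so these shares only approximate how far RSEM could separate copies. For Hist1h4d, an M21 transcript runs 770 bases past the hairpin, while the mean length behind the counts was 393 bases. Hist2h2aa1 and Hist2h2aa2 had identical counts in all 16 libraries and stand for a single measurement. Values of single copies are therefore estimates. Sharing between families was small, since 900 of 52936 windows occurred in genes of more than 1 family.

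The first question was how irradiation moved these genes on each diet. The 54 genes as a sum lay at similar levels. On the supplemented diet the sum was 2182, 2244, 2153 and 1758 CPM in irradiated libraries, against 2235, 1969, 1705 and 2138 CPM in unirradiated libraries. On the adequate diet it was 1877, 1592, 1820 and 3304 CPM in irradiated libraries, against 1500, 2158, 1972 and 1955 CPM in unirradiated libraries. The groups overlapped on both diets, and the 3304 CPM of irradiated replicate 4 stood apart from the other 3 libraries of its group. The mean was 2084 ± 221 CPM in supplemented irradiated libraries, against 2012 ± 232 CPM in supplemented unirradiated libraries, and 2148 ± 780 CPM in adequate irradiated libraries, against 1896 ± 280 CPM in adequate unirradiated libraries (SD, n = 4 each). In these bulk samples, a different number of dividing cells and a different amount of histone mRNA per cell cannot be told apart.

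Gene by gene, a few copies were higher after irradiation and none passed the test in the other direction. On the supplemented diet 3 of 50 tested genes rose (6%) and 0 fell, while 8.03% of all 16558 tested genes rose and 7.21% fell. On the adequate diet 6 of 50 rose (12%) and 0 fell, while 7.13% of all tested genes rose and 6.58% fell. The test was edgeR's quasi-likelihood F test with Benjamini-Hochberg adjustment over all tested genes, and a call needed an adjusted p under 0.05. At an unadjusted p under 0.05, 5 were higher and 4 lower on the supplemented diet, and 11 were higher and 1 lower on the adequate diet. DESeq2 called 4 higher and limma voom 3 higher on the supplemented diet, and each called 7 higher and 0 lower on the adequate diet. The fourth gene of DESeq2 was Hist1h2an. The 6% on the supplemented diet is below the share of all genes, and the 6 genes on the adequate diet count the identical pair Hist2h2aa1 and Hist2h2aa2 as separate genes.

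Hist2h2ac, an H2A gene of the chromosome 3 cluster, rose on both diets. Its levels on the supplemented diet were 52.6, 59.9, 61.6 and 58.0 CPM in irradiated libraries, against 22.5, 21.8, 29.1 and 15.3 CPM in unirradiated libraries. Its levels on the adequate diet were 41.3, 45.2, 47.2 and 65.7 CPM in irradiated libraries, against 12.4, 22.8, 23.8 and 21.3 CPM in unirradiated libraries. All irradiated libraries lay above all unirradiated ones on either diet. The log2 fold change was 1.39 ± 0.20 on the supplemented diet (SE, edgeR adjusted p = 0.000272) and 1.28 ± 0.20 on the adequate diet (SE, edgeR adjusted p = 0.000733). The call held in every one of the 17 alternatives run for each diet, in which the log2 fold change stayed between 1.25 and 1.55 on the supplemented diet and between 0.98 and 1.37 on the adequate diet. Of its 47-base windows, 59.1% were its own.

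Hist2h2ac also took a larger part of the H2A counts, a measure that needs no scaling between libraries. With supplementation it made up 12.4, 11.2, 12.8 and 14.2% of the counts of the 16 H2A genes in irradiated libraries, against 5.23, 5.50, 7.69 and 3.91% in unirradiated libraries. With the adequate diet it made up 9.75, 12.7, 11.6 and 8.94% in irradiated libraries, against 4.90, 5.20, 6.43 and 6.03% in unirradiated libraries. The groups did not overlap, and the share of adequate irradiated replicate 4 (8.94%), the library with the highest histone sum, was the lowest of its group. These shares leave out the unnamed H2A copies and the H2A pseudogenes, and they were not taken over the wider set described below.

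Hist1h2ad, an H2A gene of the large chromosome 13 cluster, rose on both diets as well. Supplemented mice had 21.1, 31.2, 29.6 and 22.6 CPM in irradiated libraries, against 13.9, 9.92, 17.8 and 15.0 CPM in unirradiated libraries. Adequate-diet mice had 21.6, 27.4, 19.9 and 48.6 CPM in irradiated libraries, against 7.53, 13.6, 8.99 and 10.1 CPM in unirradiated libraries. The groups did not overlap on either diet. The log2 fold change was 0.89 ± 0.26 on the supplemented diet (SE, edgeR adjusted p = 0.0311) and 1.51 ± 0.28 on the adequate diet (SE, edgeR adjusted p = 0.00243). The adequate-diet call held in all 17 alternatives (log2 fold change 0.93 to 1.69). The supplemented call was lost without unirradiated replicate 1, 2 or 4 or irradiated replicate 2 or 3, where the log2 fold change was 0.75 to 0.92 and the adjusted p 0.066 to 0.099. Of its 47-base windows 32.7% were its own. Hist1h2ad took 4.97 to 6.13% of the H2A counts in supplemented irradiated against 2.50 to 4.72% in supplemented unirradiated libraries. On the adequate diet it took 4.90 to 7.67% against 2.42 to 3.10%, so these shares, also over the named H2A genes only, did not overlap either.

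Hist1h4d, an H4 gene of the chromosome 13 cluster, was the H4 gene that rose. Supplemented mice had 125.6, 108.0, 103.6 and 98.2 CPM in irradiated libraries, against 68.5, 59.1, 66.1 and 83.4 CPM in unirradiated libraries. Adequate-diet mice had 71.8, 97.2, 70.0 and 158.2 CPM in irradiated libraries, against 54.1, 51.6, 58.7 and 56.0 CPM in unirradiated libraries. The groups did not overlap on either diet, although adequate irradiated replicate 4 lay well above the others of its group. The log2 fold change was 0.65 ± 0.20 on the supplemented diet (SE, edgeR adjusted p = 0.0401) and 0.85 ± 0.21 on the adequate diet (SE, edgeR adjusted p = 0.0120). The supplemented call was lost without unirradiated replicate 1, 2 or 3 or irradiated replicate 1, 2 or 3 (0.58 to 0.67, adjusted p 0.074 to 0.109) and without the 3 libraries under 4 M counts (0.58, adjusted p = 0.127). The adequate call was lost without the 3 libraries under 4 M counts (0.86, adjusted p = 0.0511) and without these and adequate irradiated replicate 4 together (0.37, adjusted p = 0.12).

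The remaining calls were on the adequate diet. The pair Hist2h2aa1 and Hist2h2aa2, H2A genes of the same chromosome 3 cluster as Hist2h2ac, had 26.7, 32.3, 25.7 and 50.3 CPM each in irradiated libraries, against 13.8, 15.6, 21.9 and 19.9 CPM in unirradiated libraries. The groups did not overlap, and the log2 fold change was 0.90 ± 0.21 (SE, edgeR adjusted p = 0.0107). This call held in 16 of 17 alternatives, all but the one without adequate irradiated replicate 4 and the 3 libraries under 4 M counts (0.46, adjusted p = 0.127). On the supplemented diet the pair had 33.0, 24.3, 22.8 and 25.2 CPM in irradiated libraries, against 24.7, 26.9, 32.0 and 37.6 CPM in unirradiated libraries. There the groups overlapped and the log2 fold change was -0.22 ± 0.21 (SE, edgeR adjusted p = 0.508).

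Hist1h2ai had low levels, 4.59, 3.81, 5.44 and 7.71 CPM in adequate irradiated libraries, against 1.80, 2.70, 3.03 and 3.77 CPM in adequate unirradiated libraries. The groups came close without overlapping, and the log2 fold change was 0.89 ± 0.26 (SE, edgeR adjusted p = 0.0340). Its call was lost without unirradiated replicate 1, 2 or 3 or irradiated replicate 3 or 4 (log2 fold change 0.65 to 0.91, adjusted p 0.058 to 0.114). It was also lost without the 3 libraries under 4 M counts (0.91, adjusted p = 0.0603) and without these and adequate irradiated replicate 4 together (0.66, adjusted p = 0.177). With 9.80% of its windows its own, the level of Hist1h2ai rests mostly on reads that fit other H2A copies too. On the supplemented diet it had 4.54, 5.65, 5.98 and 4.40 CPM in irradiated libraries, against 3.81, 3.32, 5.04 and 2.35 CPM in unirradiated libraries, and the change of 0.52 ± 0.25 was not called (SE, edgeR adjusted p = 0.177).

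**Figure D1:**
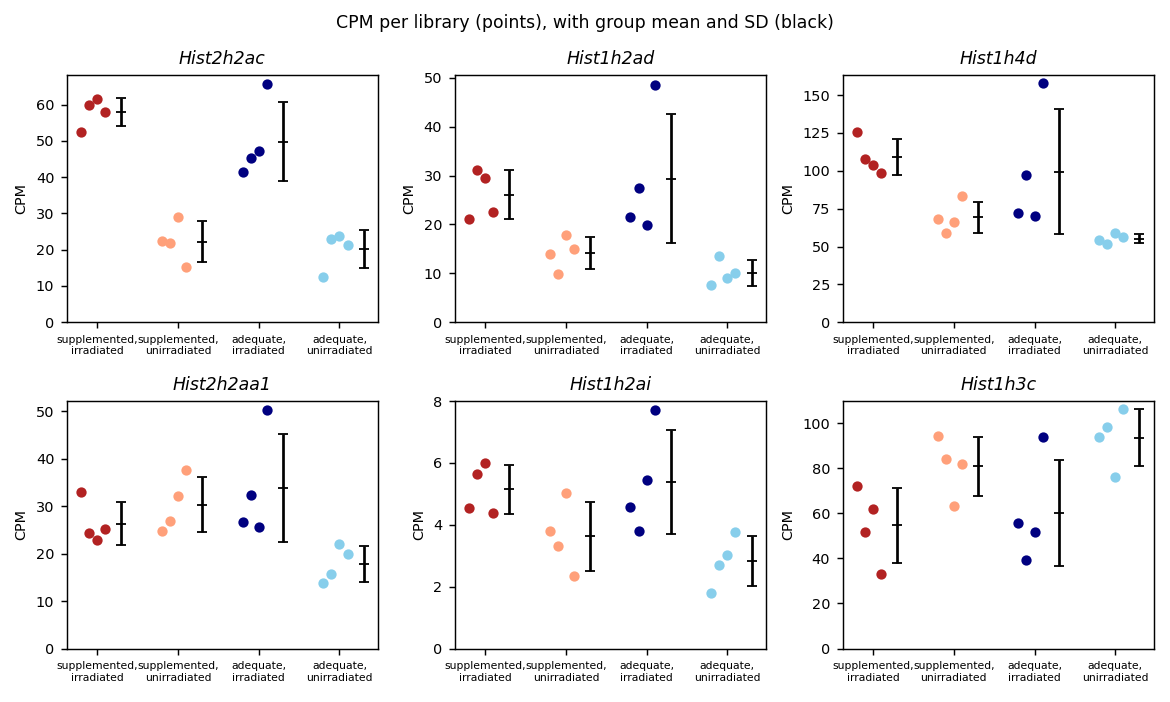
CPM of 6 histone genes (vertical axis, linear) in each library of the 4 groups; points are libraries in replicate order and the black marks are the group mean and SD (n = 4). Hist2h2ac, Hist1h2ad and Hist1h4d lie higher in all irradiated than in all unirradiated libraries of the same diet, Hist2h2aa1 does so on the adequate diet alone, and Hist1h3c has lower means in irradiated groups with overlap on both diets.

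The families differed in where their genes lay. On the supplemented diet the median log2 fold change was 0.10 over the 50 tested genes, with 30 above 0 and 20 below, against 0.007 over all tested genes. The adequate-diet median was 0.35, with 36 above 0 and 14 below, against 0.006 over all tested genes. Without adequate irradiated replicate 4 the adequate median was -0.003, so the shift of the whole set rested on that library. These medians describe genes that share reads and carry no test.

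The H2A genes had a median log2 fold change of 0.31 on the supplemented diet, where 2 of 15 were called higher (8.03% of all tested genes), and of 0.55 on the adequate diet, where 5 of 15 were called higher (7.13% of all tested genes). The 5 count the identical pair Hist2h2aa1 and Hist2h2aa2 as separate genes. Beside the named ones, Hist1h2ag came near the threshold on the adequate diet (0.55 ± 0.18, SE, edgeR adjusted p = 0.0565) and Hist1h2ak had a negative value on the supplemented diet (-0.70 ± 0.28, SE, edgeR adjusted p = 0.104). The 12 tested H4 genes had a median of 0.20 on the supplemented diet and 0.37 on the adequate diet, with Hist1h4d the called one on each. This is 8.33% of the 12, near the 8.03% (supplemented) and 7.13% (adequate) of all tested genes that were called higher. At an unadjusted p under 0.05, 2 were higher and 1 lower on the supplemented diet, and 2 were higher and 0 lower on the adequate diet. Hist1h4c, the gene with the highest mean TPM, had 138, 141, 145 and 106 CPM in supplemented irradiated libraries, against 106, 99.0, 123 and 106 CPM in supplemented unirradiated ones. It was not called (0.29 ± 0.21, SE, edgeR adjusted p = 0.383), and neither was it on the adequate diet (0.39 ± 0.21, SE, edgeR adjusted p = 0.230). Hist1h4m, listed at 0 in 3 of the 16 libraries, had the lowest values of the family, -1.91 ± 0.80 on the supplemented diet (SE, edgeR adjusted p = 0.129) and -1.08 ± 0.79 on the adequate diet (adjusted p = 0.399).

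The 11 tested H2B genes had medians of 0.11 on the supplemented and 0.42 on the adequate diet, and 0 were called, with 0 on the supplemented and 2 higher on the adequate diet at an unadjusted p under 0.05. Their values ran between -0.62 and 0.58 on the supplemented diet and between -0.27 and 1.11 on the adequate diet. Of the unnamed identifiers that hold an H2B transcript, that of Hist1h2br was called higher on the adequate diet (0.997 ± 0.297, SE, edgeR adjusted p = 0.0364). That of Hist1h2bn was called lower on the supplemented diet (-0.76 ± 0.22, SE, edgeR adjusted p = 0.0283). Those of Hist1h2bq and Hist1h2bl were not called on either diet. The lack of calls is therefore that of the named H2B genes. Hist1h2bc and Hist2h2be, known for polyadenylated transcripts in cells that no longer divide, had 0.15 ± 0.31 and 0.58 ± 0.33 on the supplemented diet (SE, edgeR adjusted p = 0.787 and 0.265). The adequate-diet values were -0.27 ± 0.31 for Hist1h2bc and -0.10 ± 0.33 for Hist2h2be (SE, edgeR adjusted p = 0.611 and 0.885). Hist2h2be was the lowest tested gene by mean TPM (0.165 TPM) and had as few as 4.41 counts in a library. The 5 tested H1 genes had medians of -0.02 on the supplemented and 0.18 on the adequate diet, and 0 were called, with 1 lower on the supplemented diet and 0 on the adequate diet at an unadjusted p under 0.05. For H2B and H1 alike, the shares of all tested genes were 8.03% higher and 7.21% lower on the supplemented diet. On the adequate diet they were 7.13% higher and 6.58% lower. Hist1h1c had 84.4, 81.0, 88.9 and 71.9 CPM in supplemented irradiated libraries, against 125, 104, 81.4 and 157 CPM in supplemented unirradiated ones, with overlap, and its value of -0.52 ± 0.22 was not called (SE, edgeR adjusted p = 0.115). Hist1h1e, the most abundant H1 gene per length, had -0.02 ± 0.22 on the supplemented diet (SE, edgeR adjusted p = 0.962) and 0.34 ± 0.22 on the adequate diet (adjusted p = 0.317).

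The 7 named H3 genes had negative median log2 fold changes, of -0.21 on the supplemented and -0.18 on the adequate diet, and 0 of 7 were called on either, with 1 lower on each at an unadjusted p under 0.05. Of all tested genes, 8.03% were called higher and 7.21% lower on the supplemented diet, and 7.13% higher and 6.58% lower on the adequate diet. Hist1h3c had 72.3, 51.7, 61.8 and 33.2 CPM in supplemented irradiated libraries, against 94.3, 84.1, 63.1 and 82.0 CPM in supplemented unirradiated ones. Adequate-diet mice had 55.9, 39.1, 51.7 and 94.0 CPM in irradiated libraries, against 93.9, 98.2, 76.2 and 106 CPM in unirradiated ones. The highest irradiated library overlapped the unirradiated ones on each diet, and the log2 fold changes of -0.57 ± 0.25 on the supplemented diet (SE, edgeR adjusted p = 0.131) and -0.62 ± 0.25 on the adequate diet (adjusted p = 0.103) were not called. Without adequate irradiated replicate 4, Hist1h3c and Hist1h1d were called lower on the adequate diet. Of 3 unnamed identifiers that hold an H3 transcript, the one of Hist1h3f was called higher on the adequate diet (0.85 ± 0.25, SE, edgeR adjusted p = 0.0340), and those of Hist1h3d (0.74 ± 0.27, adjusted p = 0.0774) and Hist1h3g (-0.38 ± 0.21, adjusted p = 0.260) were not. On the supplemented diet these 3 had 0.26, 0.07 and -0.19 and were not called. The negative medians are therefore those of the named genes and not of every H3 copy in the files. Hist2h3b, the most abundant H3 gene, had 0.10 ± 0.21 on the supplemented diet (SE, edgeR adjusted p = 0.788) and -0.02 ± 0.21 on the adequate diet (adjusted p = 0.962).

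**Figure D2:**
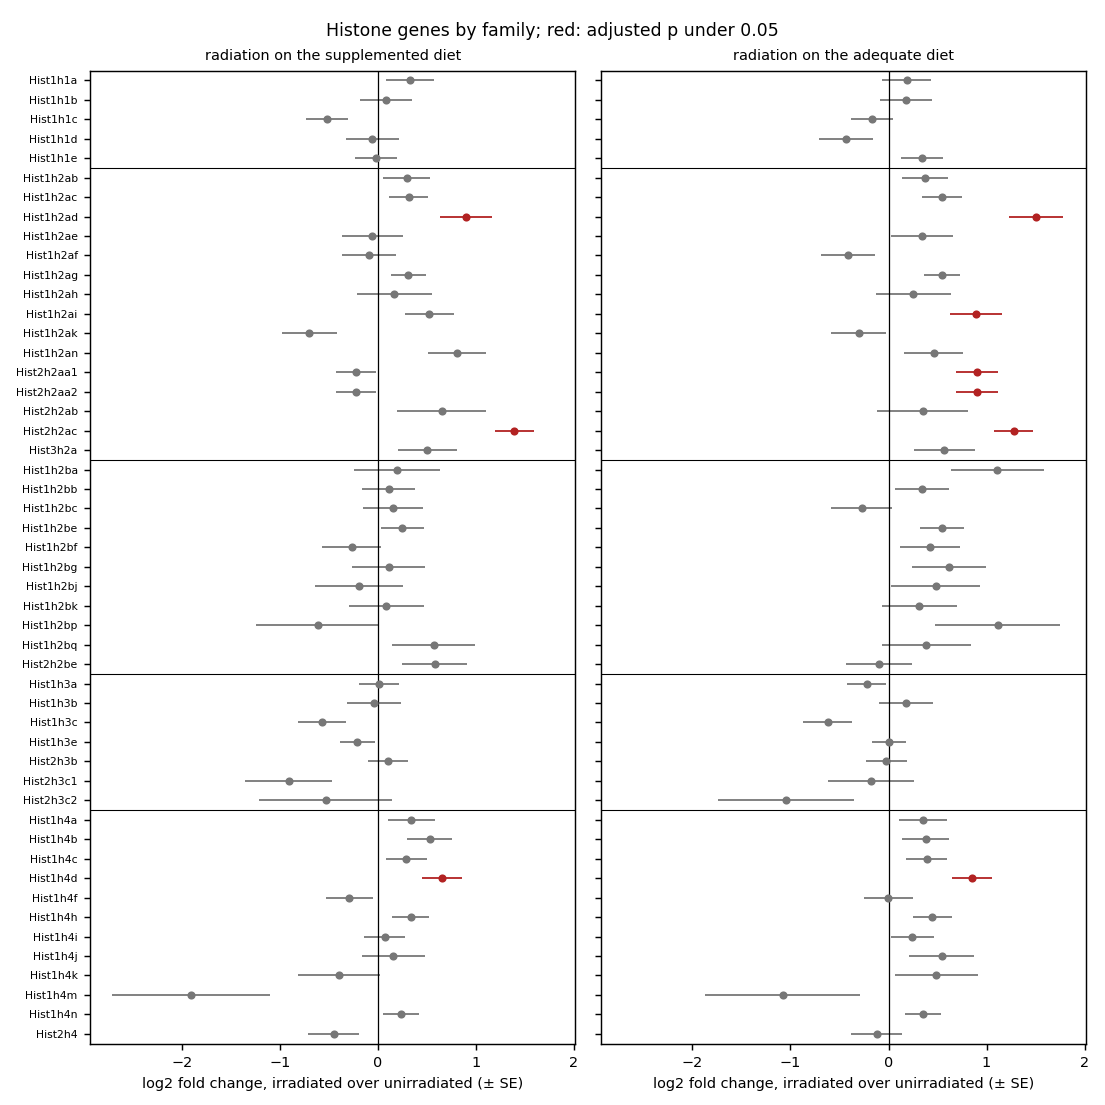
Log2 fold change of irradiated over unirradiated libraries with its SE (horizontal axis) for the 50 tested histone genes, in rows by family (H1, H2A, H2B, H3 and H4 from the top, divided by lines), on the supplemented diet (left) and the adequate diet (right). Red marks the 3 genes called on the supplemented and the 6 called on the adequate diet, all above 0.

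The make-up of the histone pool was then compared as shares of the counts of the 54 genes. Such shares do not depend on scaling between libraries. They hardly depend on how reads are divided among the counted copies of a family. They do depend on how reads are divided between these copies and those left out. The H3 genes took 21.3, 19.5, 20.7 and 17.5% of these counts in supplemented irradiated libraries, against 23.6, 25.1, 23.0 and 23.1% in supplemented unirradiated libraries. The share on the adequate diet was 20.6, 17.6, 20.0 and 20.3% in irradiated libraries, against 27.3, 23.1, 23.8 and 25.2% in unirradiated libraries. Every irradiated library lay below every unirradiated one on both diets, adequate irradiated replicate 4 included.

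The H4 genes had the opposite pattern. They took 27.3, 24.2, 24.5 and 24.3% in supplemented irradiated libraries, against 21.5, 21.1, 22.3 and 21.6% in supplemented unirradiated libraries. The share on the adequate diet was 23.2, 30.4, 25.2 and 23.3% in irradiated libraries, against 21.8, 19.4, 21.6 and 22.8% in unirradiated libraries. The groups did not overlap on either diet. The family shares make up a whole, so these shifts are not independent. As summed CPM, both families overlapped between groups on both diets. H3 sums in irradiated against unirradiated libraries were 308 to 465 against 392 to 527 CPM with supplementation. With the adequate diet they were 280 to 671 against 410 to 499 CPM. H4 sums were 427 to 595 against 381 to 481 CPM with supplementation. With the adequate diet they were 436 to 771 against 327 to 446 CPM.

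The H2A genes took 22.6, 22.5, 22.4 and 22.2% in adequate irradiated libraries, against 16.8, 20.4, 18.8 and 18.1% in adequate unirradiated libraries, with no overlap, while on the supplemented diet the groups overlapped (19.5 to 23.8% in irradiated, 18.3 to 22.2% in unirradiated libraries). The H1 genes took 18.2 to 19.5% in adequate irradiated libraries, against 19.9 to 23.2% in adequate unirradiated ones, and overlapped on the supplemented diet (16.1 to 18.7% in irradiated, 17.4 to 22.4% in unirradiated libraries). The H2B shares overlapped on both diets.

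Since genes with identifiers not analysed by name could change such shares, they were also taken over a wider set, chosen after seeing the data, that added 9 unnamed identifiers holding a histone transcript and the 3 pseudogenes. The H3 share stayed without overlap in this set, at up to 19.8% in supplemented irradiated against 20.1% or more in supplemented unirradiated libraries, and at up to 19.1% in adequate irradiated against 20.1% or more in adequate unirradiated libraries. The H4 share stayed apart on the supplemented diet (17.6 to 21.9% in irradiated, 15.7 to 16.7% in unirradiated libraries) and overlapped on the adequate diet (16.8 to 24.7% in irradiated, 14.5 to 17.7% in unirradiated libraries). The H2A and H1 shares overlapped on both diets in the wider set. The shares were given no test, because they are sums over chosen genes.

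**Figure D3:**
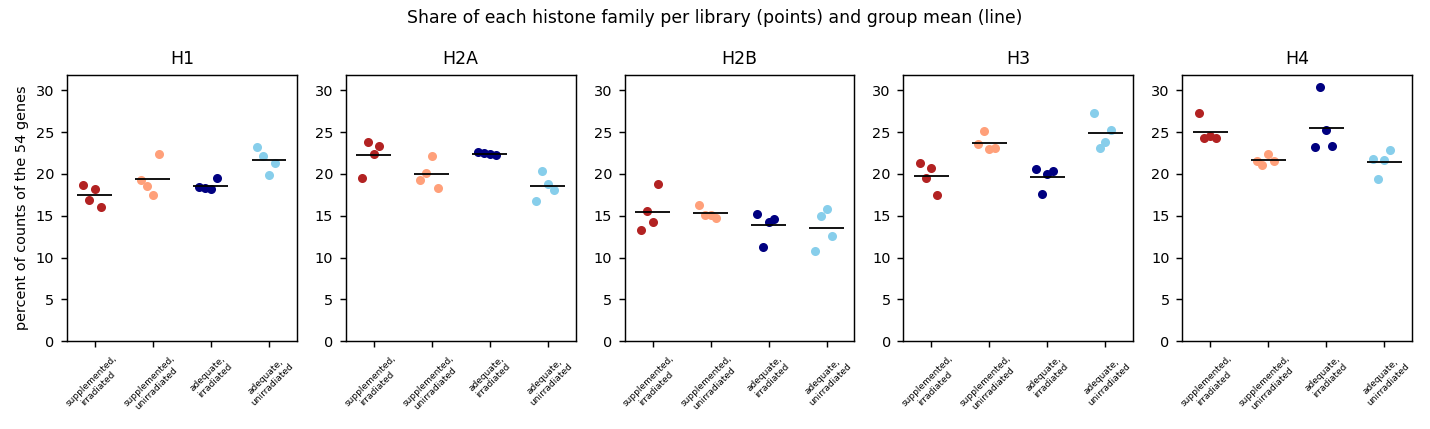
Percent of the counts of the 54 histone genes that each family took (vertical axis) in each library of the 4 groups; points are libraries and lines are group means (n = 4). The H3 share is lower and the H4 share higher in all irradiated than in all unirradiated libraries of the same diet.

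Length and the hairpin were set beside the changes as descriptions. Across the 50 tested genes, which are not independent replicates, Spearman's rho between length and log2 fold change was 0.006 on the supplemented and -0.19 on the adequate diet, against 0.08 on the supplemented and 0.07 on the adequate diet across 13688 other tested protein-coding genes. The 35 tested genes with a hairpin had a median log2 fold change of 0.01 on the supplemented and 0.37 on the adequate diet, and the 15 without had medians of 0.19 on the supplemented and 0.25 on the adequate diet. Of the genes named as called, Hist1h2ai was the one in which the search found no hairpin. The families differ in their share of genes with a hairpin, so the split is not independent of family.

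The genes that make and process histone mRNA were looked at next. Of 28 tested genes of histone transcription and 3′ end processing, 0 were called on the supplemented diet, where 3 were higher and 2 lower at an unadjusted p under 0.05, and 1 was called higher and 0 lower on the adequate diet. Over all tested genes 8.03% were higher and 7.21% lower on the supplemented diet, and 7.13% were higher and 6.58% lower on the adequate diet. The called gene was Clp1, a factor of mRNA 3′ end cleavage (0.51 ± 0.16, SE, edgeR adjusted p = 0.0453). Slbp had -0.23 ± 0.11 on the supplemented diet (SE, edgeR adjusted p = 0.177) and -0.07 ± 0.11 on the adequate diet (adjusted p = 0.737). Npat had 0.27 ± 0.14 on the supplemented diet (SE, edgeR adjusted p = 0.217) and 0.42 ± 0.15 on the adequate diet (adjusted p = 0.0696). Casp8ap2, which works with Npat at histone genes, had 0.18 ± 0.12 on the supplemented diet (SE, edgeR adjusted p = 0.332) and 0.22 ± 0.12 on the adequate diet (adjusted p = 0.237). The 10 tested replication-independent histone variants, made outside S phase as well, had 0 calls on either diet, and at an unadjusted p under 0.05, 1 was lower on the supplemented and 2 were lower on the adequate diet.

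Of 25 histone chaperones, which carry histones to DNA, 2 were higher and 2 lower on the supplemented diet, and 2 were higher and 1 lower on the adequate diet. These counts lie near those shares of all tested genes, so they are given as values of single genes. Nap1l1, a carrier of H2A and H2B, rose on both diets (0.73 ± 0.17 on the supplemented diet, SE, edgeR adjusted p = 0.00861, and 0.80 ± 0.17 on the adequate diet, adjusted p = 0.00646). Npm1, an abundant nucleolar chaperone, rose as well (0.95 ± 0.19 on the supplemented diet, SE, edgeR adjusted p = 0.00404, and 0.78 ± 0.19 on the adequate diet, adjusted p = 0.0138). Cabin1, which belongs to a complex that deposits H3.3, fell on both diets (-0.51 ± 0.11 on the supplemented diet, SE, edgeR adjusted p = 0.00538, and -0.53 ± 0.11 on the adequate diet, adjusted p = 0.00516). Daxx, another H3.3 chaperone, fell on the supplemented diet (-0.66 ± 0.13, SE, edgeR adjusted p = 0.00253).

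Genes of the cell cycle gave the context of S phase. Over all tested genes, 8.03% were called higher and 7.21% lower on the supplemented diet, and 7.13% higher and 6.58% lower on the adequate diet. Of the 27 S phase and DNA replication genes reported here, 1 was called higher (3.70%) and 0 lower on the supplemented diet. It was Prim1, the catalytic subunit of DNA primase (0.74 ± 0.23, SE, edgeR adjusted p = 0.0382). On the adequate diet edgeR called 0 of the 27, and at an unadjusted p under 0.05, 6 were higher and 0 lower; Prim1 had 0.73 ± 0.24 there (SE, edgeR adjusted p = 0.0529). Of 24 G2 and M phase genes 0 were called on either diet, and at an unadjusted p under 0.05, 0 differed on the supplemented diet and 1 was higher on the adequate diet. Mki67, a marker of dividing cells, had 0.23 ± 0.26 on the supplemented diet (SE, edgeR adjusted p = 0.600) and 0.43 ± 0.26 on the adequate diet (adjusted p = 0.289). Pcna, the replication clamp, had -0.32 ± 0.14 on the supplemented diet (SE, edgeR adjusted p = 0.134) and -0.14 ± 0.14 on the adequate diet (adjusted p = 0.540). Cdkn1a, a target of p53 that halts the cycle, had -0.29 ± 0.31 on the supplemented diet (SE, edgeR adjusted p = 0.573) and 0.17 ± 0.31 on the adequate diet (adjusted p = 0.766).

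Replicate 4 of each irradiated group stood apart in these genes too. Adequate irradiated replicate 4, with the highest histone sum of the 16, had 838 CPM summed over the S phase list, against 476 to 532 CPM in the other 3 libraries of its group. Supplemented irradiated replicate 4, the lowest histone sum of its group, had 453 CPM, against 685 to 756 CPM in the other 3. The absorptive enterocyte genes ran the other way, at 18438 CPM in adequate irradiated replicate 4 (32912 to 52044 CPM in the rest of its group) and 66132 CPM in supplemented irradiated replicate 4 (16302 to 30299 CPM in the rest of its group). Whether these libraries differ in the mix of crypt and villus tissue was not tested.

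**Figure D4:**
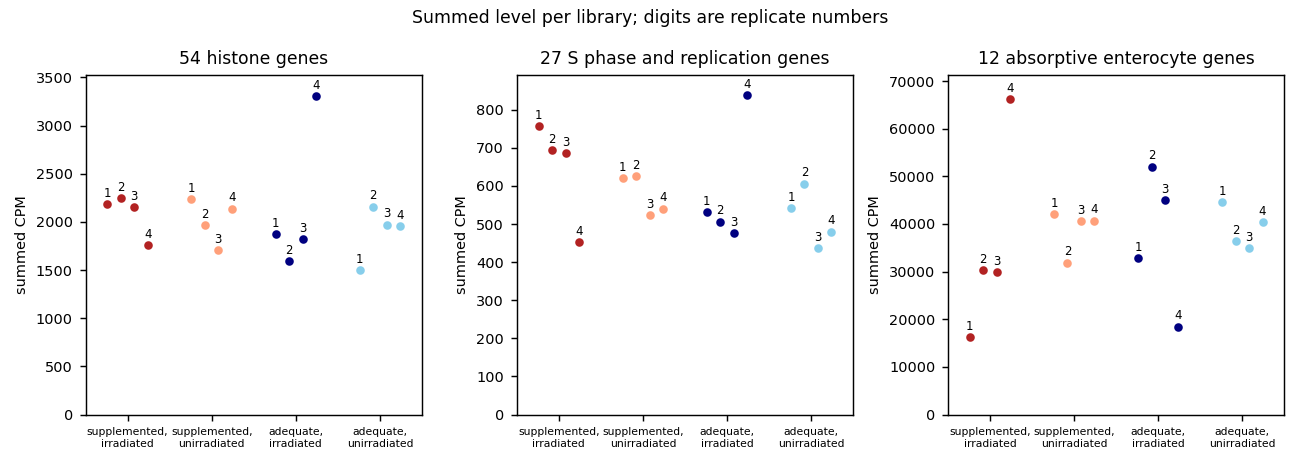
Summed CPM (vertical axes, linear) of the 54 histone genes, 27 S phase and replication genes and 12 absorptive enterocyte genes in each library of the 4 groups; digits are replicate numbers. Adequate irradiated replicate 4 is highest for the first and second sums (3304 and 838 CPM), and supplemented irradiated replicate 4 is highest for the last (66132 CPM).

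Marker genes of other cell types differed between the groups compared. The counts below stand beside 8.03% of all tested genes called higher and 7.21% lower on the supplemented diet. On the adequate diet these shares were 7.13% higher and 6.58% lower. All 9 tested Paneth cell genes were higher in irradiated libraries on both diets, and their sum was 13005 to 19918 CPM in supplemented irradiated against 4087 to 6964 CPM in supplemented unirradiated libraries, and 9728 to 15166 CPM in adequate irradiated against 3198 to 4539 CPM in adequate unirradiated libraries. Of 10 crypt base stem cell genes 5 were higher on the supplemented and 4 on the adequate diet, and they summed to 866 to 1337 CPM in supplemented irradiated against 468 to 611 CPM in supplemented unirradiated libraries, and to 709 to 1488 CPM in adequate irradiated against 446 to 480 CPM in adequate unirradiated libraries. Red blood cell genes were lower on both diets, 5 of 5, with sums of 3.61 to 28.05 CPM in supplemented irradiated against 120 to 393 CPM in supplemented unirradiated libraries, and 3.28 to 8.62 CPM in adequate irradiated against 365 to 592 CPM in adequate unirradiated libraries. Of 7 B and plasma cell genes 3 were lower on the supplemented and 6 on the adequate diet. Of 10 T cell genes, Gzma and Gzmb were higher and Cd8b1 lower on the adequate diet, and Cd8b1 was lower on the supplemented diet. Of 12 absorptive enterocyte genes, Slc2a5 was lower on both diets, and 1 of 12 lies near the share of all tested genes. The part of these cells in the histone values was not tested.

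The second question was whether methionine supplementation moved the histone genes. After irradiation 0 of 50 were called and 0 had an unadjusted p under 0.05, with a median of -0.09, while 0% of all tested genes were called. That median ran between -0.20 and 0.22 when 1 library at a time was left out. Without irradiation 0 of 50 were called with a median of 0.13, while 0.199% of all tested genes were called, and at an unadjusted p under 0.05, 2 were higher and 1 lower. These were the identical pair Hist2h2aa1 and Hist2h2aa2 (0.74 ± 0.21, SE, edgeR adjusted p = 0.172) and Hist2h2be, which has low counts (-0.73 ± 0.34, SE, edgeR adjusted p = 0.398). DESeq2 and limma voom called 0 in both comparisons too. For Hist2h2ac, the supplemented minus adequate difference was 0.21 after irradiation, with an interval of 2 SE from -0.17 to 0.60, and 0.10 without irradiation, from -0.30 to 0.50.

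The third question was whether the response to radiation differed between the diets. The interaction, supplemented response minus adequate response, called 0 of 50 histone genes with edgeR, DESeq2 and limma voom, and 0% of all tested genes with edgeR. Its median was -0.22, and it ran between -0.31 and 0.09 when 1 library at a time was left out. At an unadjusted p under 0.05 there were 2 genes, again the pair Hist2h2aa1 and Hist2h2aa2. Their interaction was -1.13 ± 0.30 (SE, edgeR unadjusted p = 0.00150, adjusted p = 0.712), so the rise on the adequate diet alone is not shown to differ between the diets. For Hist2h2ac it was 0.11, with an interval of 2 SE from -0.44 to 0.67, and for Hist1h2ad -0.61, from -1.37 to 0.14. Both intervals take in 0, and a difference of diets inside them is not excluded with 4 libraries per group.

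**Figure D5:**
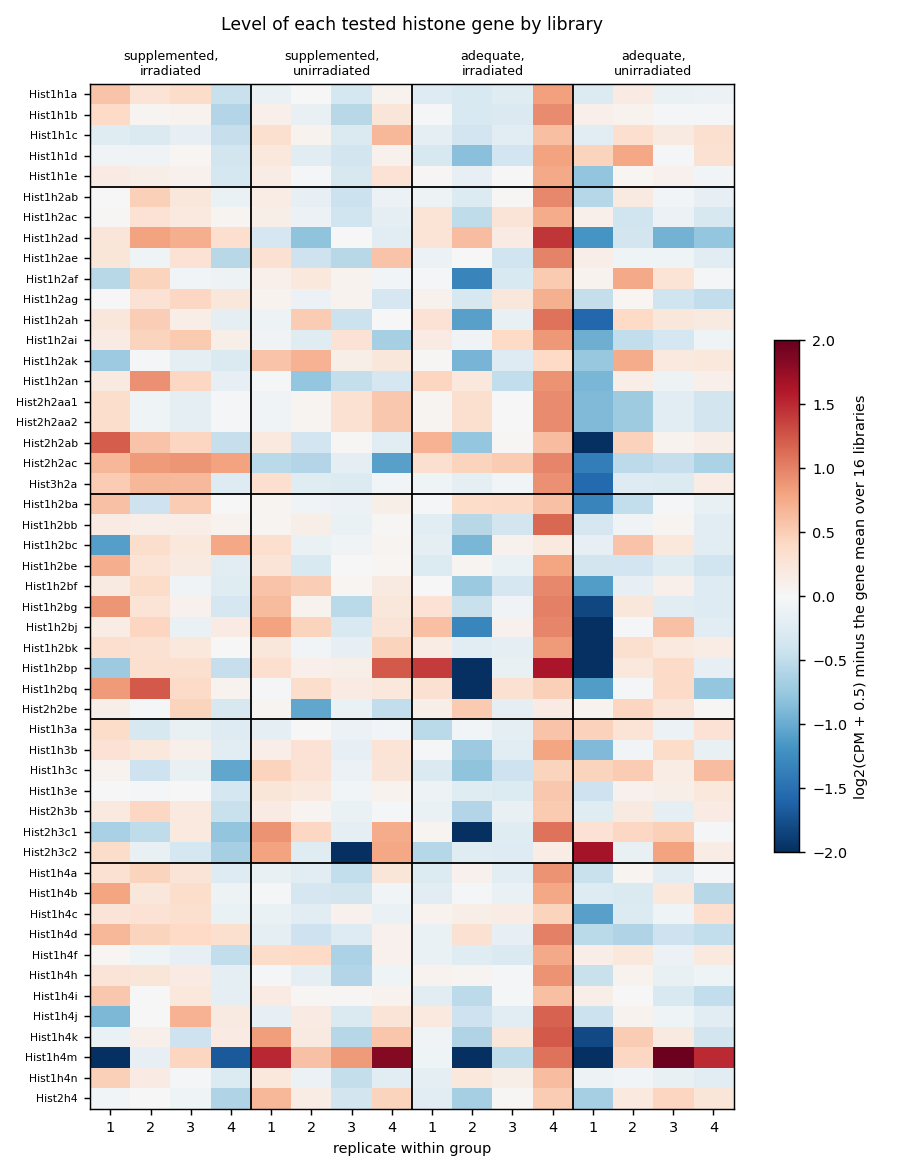
Level of each of the 50 tested histone genes (rows, by family H1, H2A, H2B, H3 and H4 from the top, divided by lines) in each of the 16 libraries (columns, by group), as log2(CPM + 0.5) minus the mean of the gene; red is above and blue below the gene's mean. Adequate irradiated replicate 4 is above the mean in nearly every row, and the row of Hist2h2ac is red in all irradiated and blue in all unirradiated libraries.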

How the data were processed

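RNA of 16 proximal jejunum libraries was depleted of ribosomal RNA, fragmented and built into libraries with a small RNA protocol, per the labels' protocols. Per the submitters' processing notes, Bowtie2 2.2.9, RSEM 1.3.0, edgeR 3.2.4 and build NCBIM37 were used. The authors deposited RSEM expected counts and TPM per gene, per the file headers. Expected counts were rounded before testing. Symbols, gene types and transcript sequences came from GENCODE M21 (32897 of 37620 identifiers matched), which belongs to a later build, so no positions are given. Histone genes and gene lists were chosen with earlier results of these data known. 1 gene was taken off the S phase list after its values were seen, for a reason unrelated to them, and is not reported here, so counts and sums of that list are over the other genes. Genes were kept by filterByExpr with the 4 groups (16558 genes), scaled by TMM and tested with the quasi-likelihood F test of edgeR 4.0.16 in R 4.3.3, 1 mean per group over 16 libraries, two-sided, with Benjamini-Hochberg adjustment over all tested genes. SE is the absolute log2 fold change divided by the square root of F. The named genes are those called, the 2 highest by TPM in each family, 4 genes known for polyadenylated transcripts, the called genes of each list and 6 fixed genes; Hist1h3c, Hist1h2ag, Hist1h2ak, Hist1h2an, Hist1h1d and Hist2h3c1 were chosen after their values were seen. Replicates are numbered by deposit order and pair nothing. Alternatives were DESeq2 1.42.0, limma 3.58.1 voom, other scalings and filters, and leaving out libraries. The test was checked on simulated counts.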

Additional observations from a re-analysis of the deposited data

Results flagged for a closer look

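In groups of 4 libraries, a value was picked out when its gap to the nearest other library, divided by the range of the group, passed Dixon's 95% critical value for 4 samples. Of 92 groups of values tested 9 were picked out, and chance picks out about 1 in 20. Adequate irradiated replicate 4 stood above the others of its group in 7 of them. Its summed CPM was 3304 over all 54 histone genes (1592 to 1877 in the others), 645.5 over the H1 genes (291 to 345) and 771 over the H4 genes (436 to 483). In the same library Hist1h1c had 150.6 CPM (76.1 to 87.0 in the others), Hist1h1e 185 CPM (98.1 to 111.5), Hist1h2ab 195 CPM (83.4 to 102) and Hist1h4c 158.5 CPM (122 to 128). Supplemented irradiated replicate 4 stood below the others of its group in 2 values, with 308 CPM over the H3 genes (439 to 465 in the others) and 85.7 CPM for Hist1h1e (116 to 122). The sums include the single genes, so these values are not independent of each other.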

How the results depend on the processing

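For the 17 named histone genes, 1564 values under alternatives were compared with the reported ones: 1440 kept direction and call, 99 changed sign without a call on either side, 23 lost a call, 2 gained one and 0 changed sign with a call. The sign changes include 15 on the adequate and 9 on the supplemented diet in the radiation comparisons. Leaving out 1 library at a time gave 1 to 4 genes called higher and 0 lower on the supplemented diet (3 and 0 reported), and 5 to 8 called higher and 0 to 2 lower on the adequate diet (6 and 0 reported); the 2 lower were Hist1h1d and Hist1h3c, without irradiated replicate 4. At an adjusted p under 0.01, 1 gene was higher on the supplemented and 2 on the adequate diet. With only the groups compared in the fit, 2 were lower on the supplemented diet (Hist1h2ak and Hist2h3c1). In an alternative chosen after seeing the data, without adequate irradiated replicate 4 and the 3 libraries under 4 M counts, Hist1h2ak and Hist1h3c were lower (2) on the supplemented diet, and 2 genes, Hist2h2ac and Hist1h2ad, were higher on the adequate diet. With the 9 unnamed identifiers added, also after seeing the data, 1 identifier, holding a transcript of Hist1h2bn, was lower on the supplemented diet (-0.76, edgeR adjusted p = 0.0283), and 2, holding transcripts of Hist1h2br and Hist1h3f, were higher on the adequate diet (0.997 and 0.852, adjusted p = 0.0364 and 0.0340). The log2 ratio of group mean sums was 0.05 on the supplemented and 0.18 on the adequate diet in CPM, and -1.22 and -0.81 in TPM. TPM moves with the small nucleolar RNA share, but how much of these 2 values comes from that share was not tested. Rescaled to protein-coding genes alone, a measure chosen after seeing the data, the mean summed TPM was 9101 in supplemented irradiated against 9481 in supplemented unirradiated libraries. On the adequate diet it was 9761 in irradiated against 8813 in unirradiated libraries. The causes of lost calls were not tested. An alternative without H1f0 was not run, as that gene's identifier was not analysed. No paired analysis was possible because the labels carry no replicate numbers. Depth limits the low copies most: Hist1h2ai had 4.69 counts in its shallowest library.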
